A study of Mus musculus with 6 samples.

Results

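The genes described here are those of cholesterol efflux and of the liver X receptors (LXR) in RAW264.7 cells: the exporter genes Abca1 and Abcg1, the receptor genes Nr1h3 and Nr1h2, the LXR target genes Mylip, Lpcat3, Apoe and Pltp, and Ch25h, whose enzyme makes an LXR ligand. They are 9 of the 23808 genes named on the array. The 9 were selected on their log2 changes in these same samples, among them the opposite moves of Abca1 and Abcg1, so their values are a description and carry no test. Probes were taken where the scanner annotation gave the gene's name, which yielded 11 probes of 55681. All 9 genes had at least 1 probe well above background on both distinct arrays of at least 1 group, which made them 9 of 15060 named genes compared.

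RAW264.7 is an established mouse macrophage line. The control group was kept in DMEM medium alone, and the treated group received AEPS, a root polysaccharide of Actinidia eriantha, for 4 h at 50 µg/ml. Each group had 3 samples of total RNA on 1-colour Agilent arrays. Separate cultures are not named in the labels, so errors and p-values below cover only how far these samples differ, which may be technical variation.

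In each group the scanner file of replicate 2 repeated the values of replicate 1, and the pair was counted as 1 sample. That left 2 distinct arrays per group, each slide holding 1 control and 1 AEPS array. The authors' deposited value table holds 3 distinct columns per group: its replicate 1 is the first scanner array, its replicate 2 is the second, whose scanner file is labelled replicate 3, and its own replicate 3 matches no scanner file. Replicate 3 is therefore a different array in the scanner files and in the table. Between 55.4% and 58.7% of spots were well above background. All 8 macrophage markers checked, among them Adgre1, Cd68 and Csf1r, were above background on every array. Their summed signal, in units of each array's 75th percentile, was 817 and 955 on control arrays and 600 and 677 on AEPS arrays. That sum mostly follows its brightest gene. The highest signal on any array was 252346 for Csf1r, against 58028 for Lyz2 and 9056 for Itgam, the next brightest. Of these 8, Ptprc rose by 0.93 ± 0.15 on the log2 scale (limma adjusted p = 0.0480). Fcgr1 fell by 1.49 (SE 0.18, limma adjusted p = 0.0344), and each was called in 14 of 20 alternatives. Beside them 5.23% of named genes were called higher and 3.47% lower. The others did not pass: Spi1 had 0.38, Adgre1 0.37, Cd68 0.15, Itgam -0.04, Lyz2 -0.14 and Csf1r -0.60. Of 16 markers of fibroblasts, T cells, B cells and epithelial cells, 4 were above background on every array (Col1a2, Cd3e, Cd79a and Cd79b), and 9 were above it on none, among them Epcam, Ms4a1, Dcn and Cd3g. In the same units the summed signal on control and AEPS arrays ranged from 0.25 to 0.45 and from 0.14 to 0.32 for fibroblasts. It ranged from 7.47 to 9.73 and from 4.67 to 7.38 for T cells, and from 0.75 to 0.86 and from 0.91 to 1.19 for B cells. For epithelial cells it ranged from 0.07 to 0.11 and from 0.05 to 0.12. The T cell sum was nearly all Cd3e, with a highest signal of 4201 against 22.3 for Cd3d, the next brightest. The B cell marker Cd79b rose by 2.59 ± 0.14 (limma adjusted p = 0.0126, called in 17 of 20 alternatives), while Cd79a, at -0.25, did not pass. The part of these markers in the results below was not tested. In such bulk RNA, fewer cells with a transcript and less of it per cell cannot be told apart.

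Macrophages cannot break down the sterol ring, and they rid themselves of cholesterol by exporting it to lipoproteins. ABCA1 loads phospholipid and cholesterol onto lipid-poor apolipoprotein A-I, and ABCG1 passes cholesterol on to formed high-density lipoprotein. Both genes are textbook targets of LXRα (Nr1h3) and LXRβ (Nr1h2), nuclear receptors that bind oxysterols and act as heterodimers with RXR at direct repeats of a hexamer half-site.

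Start regions of both members that were higher with AEPS were taken from RefSeq (GRCm38.p6) and are shown because they are the stretches next to the transcripts that were measured. The table held a start region for 8 of the 9 genes; Abcg1 is named only. The 250 bases before the start were searched on both strands for the LXR element in its strict form, the half-site AGGTCA repeated after any 4 bases, for a loose form, GGTNA repeated after any 5 bases (N is any base), and for the half-site AGGTCA alone, which lies within the strict form. In Abca1 the loose repeat was found once, as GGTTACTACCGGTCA on the strand opposite to the gene, 67 to 53 bases before the start, and it is in capitals below. In Ch25h none of these was found; the capitals there mark TGACGTCA, the palindromic cyclic AMP response element, 61 to 54 bases before the start, a motif looked for after the sequence had been seen. Abca1 lies at chr4:53159896-53160145 and Ch25h at chr19:34475149-34475398, both on the minus strand.
Abca1: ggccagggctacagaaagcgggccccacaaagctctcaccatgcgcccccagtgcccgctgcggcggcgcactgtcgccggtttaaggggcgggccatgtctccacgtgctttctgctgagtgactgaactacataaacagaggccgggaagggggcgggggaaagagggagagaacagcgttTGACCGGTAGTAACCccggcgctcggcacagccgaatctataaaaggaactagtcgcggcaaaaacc
Ch25h: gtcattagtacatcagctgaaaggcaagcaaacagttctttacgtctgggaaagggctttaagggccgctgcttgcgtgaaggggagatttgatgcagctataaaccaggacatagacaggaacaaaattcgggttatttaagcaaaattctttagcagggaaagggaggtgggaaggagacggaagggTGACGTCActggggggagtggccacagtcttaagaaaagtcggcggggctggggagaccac

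The loose repeat occurred in 0.621% of 32851 start regions of the same length, the strict form in 0.0152%, the half-site in 14% and TGACGTCA in 1.55%. No start region of Nr1h2, Nr1h3, Mylip, Lpcat3, Apoe or Pltp held any of these 4 letter strings. A match is a match of letters only, and no binding was measured here.

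The exporter genes moved in opposite directions. Abca1 was 5.86-fold higher with AEPS and Abcg1 4.75-fold lower. The Abca1 probe, which starts at base 9917 of its transcript, gave background-subtracted signals of 45.0 and 33.6 on the first and second control arrays; with AEPS they were 373 and 340. It was thus dim but well above background in control cells, and both AEPS arrays lay far above both control arrays. On the log2 scale relative to each array's 75th percentile, Abca1 was at -3.12 ± 0.04 in controls and -0.57 ± 0.07 with AEPS (SD, n = 2 each), a log2 change of 2.55 ± 0.13 (limma's moderated SE, as for all changes below).

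The size of this change differed between background models. The mean pixel signal at the Abca1 spot was 74.7 and 62.4 on the control arrays over a local background of 52 and 23. With normexp, a background correction that keeps low signals positive and adds an offset, the change was 1.43; the cause of the difference was not tested. In the authors' deposited value table Abca1 read 5.08, 5.47 and 5.57 in control replicates 1, 2 and 3, and 7.90, 8.09 and 7.94 with AEPS. The groups did not overlap there, and the change was 2.60.

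Abcg1 gave signals of 2255 and 1716 in controls and 679 and 615 with AEPS, from a probe that starts at base 3471 of its transcript. It was well above background on every array, so both ends of its change were measured. Its log2 level was 2.54 ± 0.06 in controls and 0.29 ± 0.07 with AEPS (SD, n = 2 each), a change of -2.25 ± 0.14. The authors' deposited value table listed 11.05, 11.00 and 11.04 for the controls and 8.79, 8.88 and 8.86 for AEPS. The spread within each group there was under 0.1 log2 units, against a change of -2.19.

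The change was nearly the same on both slides for each exporter. Abca1 had 2.53 on slide 1 and 2.57 on slide 2, and Abcg1 had -2.25 on each. Among 15060 named genes, Abca1 had the 142nd highest change and Abcg1 the 49th lowest. Both passed an adjusted p of 0.05 in the fit over all features, but not without the scanner array of control replicate 1 (2.52 and -2.29) or without the scanner array of control replicate 3 (2.58 and -2.20), where 1 control array is left, nor with all dim probes kept, where no feature passed.

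**Figure D1:**
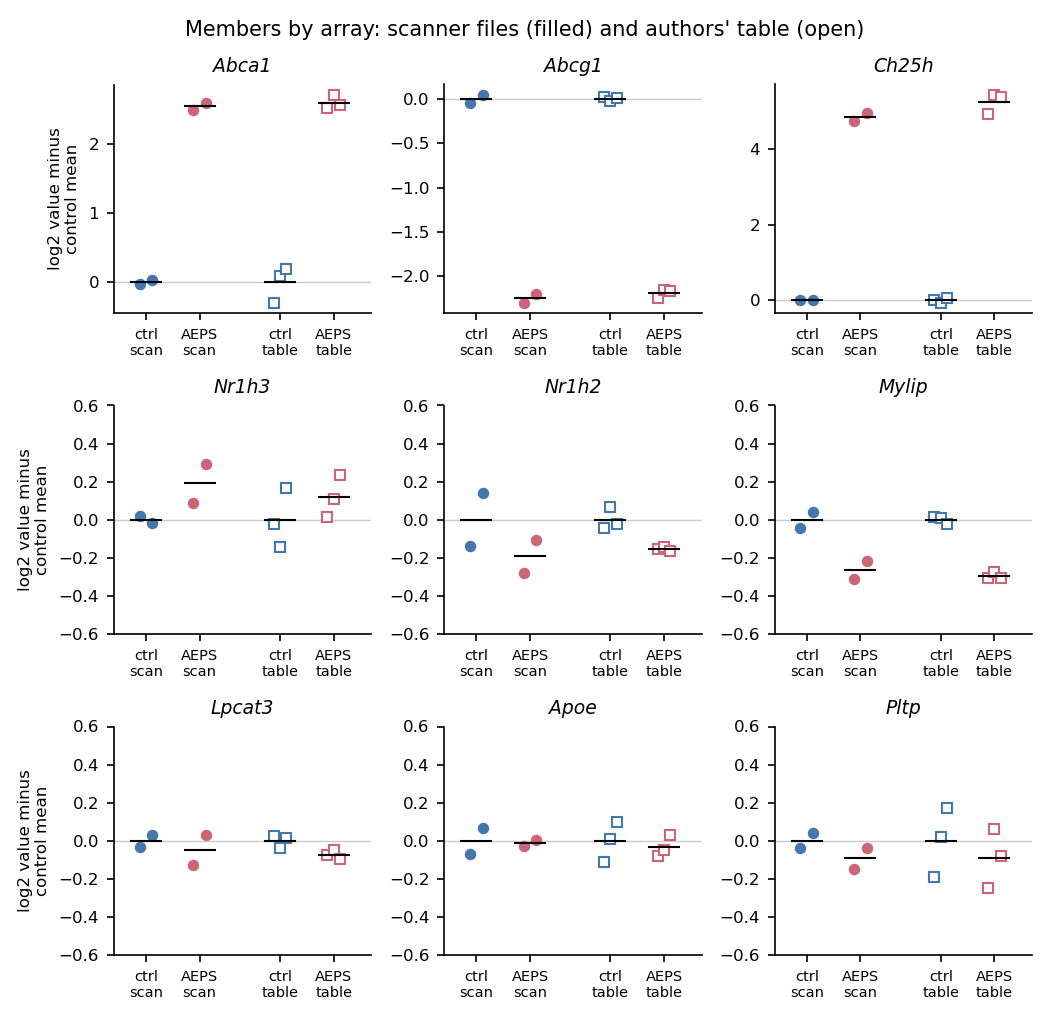
Log2 value minus the control mean (y axis) of each of the 9 genes in control (blue) and AEPS (red) samples, from the 2 distinct scanner arrays per group (filled circles) and from the 3 columns per group of the authors' table (open squares, the first and second being the same arrays); black lines are group means. Abca1 and Ch25h sit above their controls and Abcg1 below them in both sources, while the other 6 genes stay within 0.4 of the control mean.

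Ch25h, which encodes the hydroxylase that turns cholesterol into a side-chain oxysterol, was at least 7.75-fold higher with AEPS on the scanner arrays as first processed. Its probe starts at base 846 of the transcript and is shown because this gene went from below background to a clear signal; the capitals mark its last 3 bases, which spell a stop codon.
Ch25h probe: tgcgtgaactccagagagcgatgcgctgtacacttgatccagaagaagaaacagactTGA

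The probe gave 3.85 and 2.71 signal units in controls, not well above background on either array, and 148 and 146 with AEPS. Since the control level is only a bound, the fold sets the AEPS mean against the dimmest signal that still counted as well above background on each control array. A gene below background in controls could be compared only if it was bright with AEPS, which largely fixes its direction. The fitted log2 difference of 4.86 was the 21st highest of the named genes but rests on the control values below background. With normexp the difference was 1.24, a smaller rise than the stated fold, so that floor holds only for the first processing. The call of Ch25h was lost without the scanner array of control replicate 1 (4.87) and with all dim probes kept. The authors' deposited value table listed Ch25h at 1.53, 1.45 and 1.58 in controls and 6.47, 6.97 and 6.92 with AEPS, with no overlap.

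The receptor genes were bright and close to level. Nr1h2, encoding LXRβ, gave signals of 12810 and 11107 in controls and 16686 and 15960 with AEPS before scaling. After scaling its log2 level was 5.14 ± 0.20 and 4.95 ± 0.12 (SD, n = 2 each), a change of -0.19 ± 0.17 that did not pass, and the arrays of the groups overlapped. In the authors' deposited value table the 3 AEPS values, 13.32, 13.33 and 13.31, lay just below the control values of 13.43, 13.54 and 13.45. That difference of -0.15 did not pass either.

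Nr1h3, encoding LXRα, has 2 probes on the array. The brighter gave 1323 and 923 signal units in controls and 1992 and 1950 with AEPS, a scaled change of 0.19 ± 0.15. The other gave 794 and 662 in controls and 1189 and 1123 with AEPS, a scaled change of 0.03. Neither probe showed a clear difference: the table's values for the brighter one were 10.30, 10.18 and 10.49 in controls and 10.34, 10.43 and 10.56 with AEPS, which overlap.

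Mylip encodes the ubiquitin ligase IDOL, which marks lipoprotein receptors for degradation. Its brighter probe gave 904 and 687 signal units in controls and 1078 and 974 with AEPS, and the scaled change was -0.26 ± 0.13, which did not pass. The authors' deposited value table gave 9.77, 9.76 and 9.73 in controls against 9.45, 9.48 and 9.45 with AEPS. These groups did not overlap and the change of -0.29 passed in that table, so the call of Mylip differed between the sources. Within the table it was lost without control replicate 2 (-0.29) and without AEPS replicate 1 (-0.29), 2 (-0.30) or 3 (-0.29). A second Mylip probe, at 15.7 to 21.4 signal units and below background on 1 array of each group, was not compared.

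Lpcat3, whose enzyme places polyunsaturated chains into phospholipids, gave 2381 and 1782 signal units in controls and 3196 and 3022 with AEPS. Its scaled change was -0.05 ± 0.14 and the arrays of the groups overlapped. The values in the authors' deposited value table were 11.12, 11.06 and 11.11 against 11.02, 11.05 and 11.00. These did not overlap, but the difference of -0.07 did not pass.

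The lipoprotein genes did not move clearly. Apoe, encoding the apolipoprotein that macrophages secrete as an acceptor of cholesterol, has 1 probe printed at 10 spots on each array. The lowest, median and highest spot were 381, 467 and 512 on the first control array and 348, 363 and 384 on the second. On the AEPS arrays they were 644, 669 and 763, then 565, 594 and 609. Before scaling every AEPS spot was thus brighter than every control spot, while the arrays' 75th percentiles rose alike, from 401 and 287 in controls to 575 and 488. The scaled change of Apoe was -0.01 ± 0.14.

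Pltp encodes the phospholipid transfer protein of plasma lipoproteins. Its signals were 179 and 135 in controls and 237 and 218 with AEPS, a scaled change of -0.09 ± 0.14 with overlapping arrays. In the authors' deposited value table it read 7.26, 7.47 and 7.62 against 7.20, 7.51 and 7.37.

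How the arrays are brought to a common scale decides the sign of most of the small changes, but not that of Nr1h3 or of the exporters. Scaling to the spike-in control probes moved the median change of all named genes from -0.11 to 0.55. With it Nr1h2 had 0.47, Mylip 0.39, Apoe 0.65, Lpcat3 0.61 and Pltp 0.57, all turned above 0, and Nr1h3 had 0.85. None of these 6 passed with that scaling. Abca1 had 3.21 and Abcg1 -1.59 with it, on either side of the shifted median.

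Over the 9 genes, 2 were called higher (Abca1 and Ch25h), 1 lower (Abcg1) and 6 neither, by limma at an adjusted p of 0.05, where 7.11% of 25925 features were called, 4.17% higher and 2.94% lower. Since this contrast served to choose the genes, nothing is read from that count. The median change of the 9 was -0.05, beside -0.11 for all named genes. With the slide as a replicate block the count was the same 2 and 1, beside 29.8% of features called, 13% higher and 16.8% lower. In the table deposited by the authors 2 were called higher and 2 lower (Abcg1 and Mylip), beside 33.4% of features, 17.1% higher and 16.4% lower; pairing its replicate numbers gave the same 4 calls, beside 49.8% of features, 23.5% higher and 26.3% lower. Over all features 1081 were higher and 761 lower; scaling to the spike-ins gave 5876 and 190, median scaling 1036 and 442, and normexp 1898 and 2688.

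**Figure D2:**
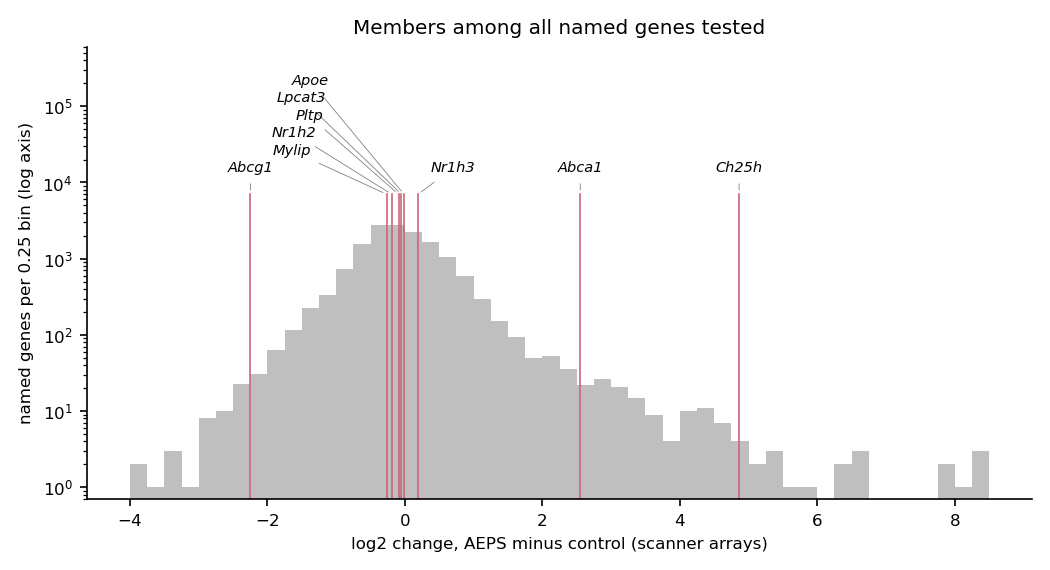
Number of named genes (y axis, log scale) in bins of 0.25 of the log2 change between AEPS and control (x axis, scanner arrays), with red lines at the 9 genes described. Abca1 at 2.55 and Ch25h at 4.86, with controls below background, lie in the upper tail and Abcg1 at -2.25 in the lower, while the other 6 fall between -0.26 and 0.19.

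**Figure D3:**
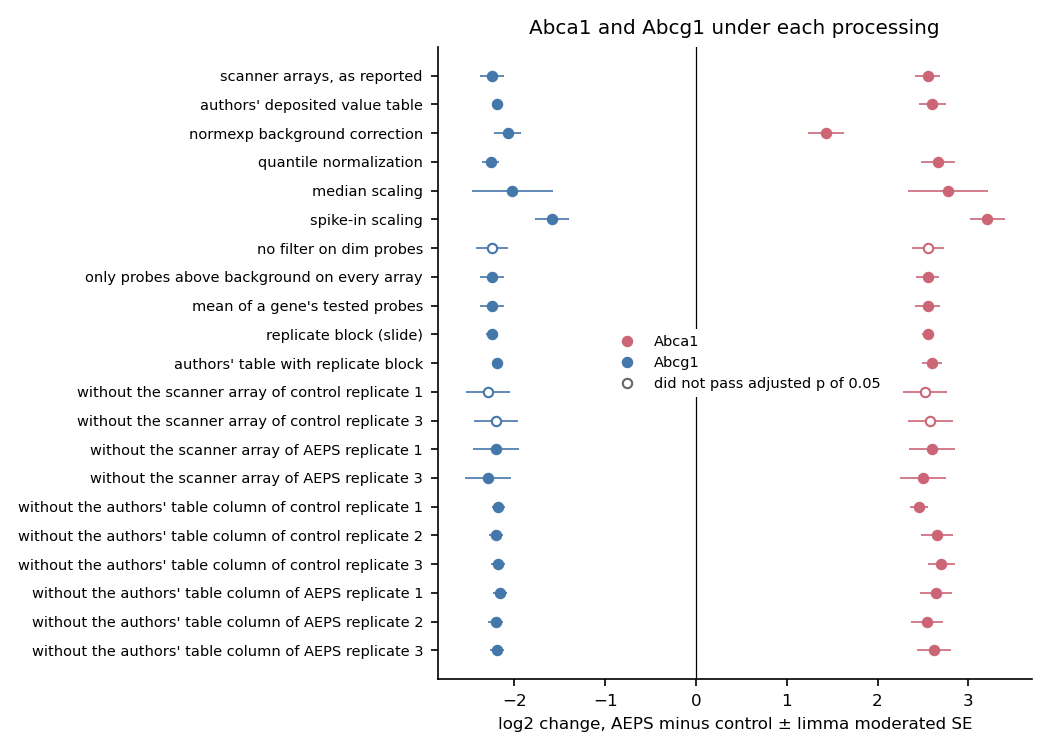
Log2 change of Abca1 (red) and Abcg1 (blue) with limma's moderated SE as bars, on the scanner arrays as reported and under 20 other ways of processing; open circles did not pass an adjusted p of 0.05. Abca1 ranges from 1.43 to 3.21 and Abcg1 from -2.30 to -1.59, and neither crosses 0.

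The 3 named genes nearest to each exporter in pattern over the 6 columns of the authors' deposited value table were listed, by Euclidean distance of deviations from the mean among 15051 genes. For Abca1 these were the cytokine gene Il15 (distance 0.19), the NF-kB subunit gene Rel (0.21) and Arhgap22 (0.21). For Abcg1 they were Tmem51 (0.09), the deubiquitinase gene Usp2 (0.19) and Ankrd34a (0.19). Their table changes were close to those of the exporters, 2.54 to 2.65 for the first set and -2.32 to -2.24 for the second. The distance is a description of 6 samples and tests nothing.

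The other genes of the pathway were taken from 5 lists drawn up by function, with earlier results of these data known. Of 21 further LXR targets 16 were compared, and 0 rose or fell by limma's adjusted test, beside 5.23% higher and 3.47% lower among named genes; 2 higher and 2 lower had an unadjusted p under 0.05. Their changes ran from -0.70 to 0.63 with a median of -0.10. The lipoprotein lipase gene Lpl, the brightest, had 0.63 ± 0.13 (adjusted p = 0.0708). With the slide as a replicate block 3 rose, namely Lpl (adjusted p = 0.0360), Acsl3 and Fasn, and 2 fell, Scd2 at -0.59 and the lipogenic regulator gene Srebf1 at -0.70 (0.07 and -0.04 with spike-in scaling), where 16.5% of named genes were higher and 17.1% lower by limma. The authors' deposited value table gave 4 higher and 2 lower, beside 21.4% and 19.6% of named genes. Spike-in scaling gave 5 higher and 0 lower (0 at an unadjusted p under 0.05), beside 28.7% and 0.93%. Abcg5, Abcg8, Mertk and Apoc4 were among those above background on no array.

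Among the RXR partners and nuclear receptor coregulators 3 of 20 fell and 0 rose by limma (2 higher at an unadjusted p under 0.05), beside 3.47% lower and 5.23% higher among named genes. With the replicate block 4 fell and 2 rose, beside 17.1% and 16.5%, and with spike-in scaling 1 fell (Ppargc1b) and 3 rose (Ncor1, Nrip1 and Tbl1xr1), beside 0.93% and 28.7%. The 3 that fell without either were Ppargc1b at -1.46 ± 0.19 (adjusted p = 0.0378), a coactivator gene of metabolic programmes, Ncoa3 at -1.34 ± 0.15 (adjusted p = 0.0324), a steroid receptor coactivator gene, and Rxrb at -0.96 ± 0.14 (adjusted p = 0.0420), one of the RXR genes. Rxra had -0.02 and Rxrg -0.30, neither past the test. The authors' deposited value table gave 4 lower and 2 higher, beside 19.6% and 21.4% of named genes. On the scanner arrays the list's median was -0.13. The mean over the compared probes of Ncoa3 changed the result: it was -0.67 (adjusted p = 0.0985).

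Of 18 genes of oxysterol enzymes and sterol sensors 14 were compared; 2 fell and 0 rose by limma (1 higher at an unadjusted p under 0.05), beside 3.47% lower and 5.23% higher among named genes, with a list median of -0.21. With the replicate block 4 fell and 1 rose, beside 17.1% and 16.5%. The authors' deposited value table gave 3 lower and 3 higher, beside 19.6% and 21.4%. With spike-in scaling the count turned to 0 lower (1 at an unadjusted p under 0.05) and 3 higher (Insig2, Mbtps2 and Srebf2), beside 0.93% and 28.7%. Gpr183, the chemotactic receptor for a dihydroxylated product of the Ch25h pathway, fell by 1.52 on the log2 scale (SE 0.13, adjusted p = 0.0228). Hsd3b7, whose enzyme breaks that ligand down, had -0.89 ± 0.14 (adjusted p = 0.0461). Cyp7b1, whose enzyme makes it, was above background on no array. Scap, the sterol-sensing escort of SREBP and the brightest of the list that did not pass, had -0.22 ± 0.19 (adjusted p = 0.467). Srebf2, encoding the SREBP of cholesterol synthesis, had 0.62 ± 0.17 (adjusted p = 0.106, and 0.0434 with the block).

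In lipoprotein uptake and cholesterol trafficking 1 of 18 genes compared was called higher and 0 lower by limma (2 lower at an unadjusted p under 0.05), beside 5.23% and 3.47% of named genes, with a median of -0.20. The 1 was Lcat, the cholesterol-esterifying enzyme of plasma, which rose from below background in controls (adjusted p = 0.0255). On the scanner arrays as first processed it was at least 3.30-fold higher. It entered the comparison only through the AEPS arrays, which largely fixes its direction, so its call is no evidence for the list. With normexp that floor did not hold, and Lcat had 0.32 (adjusted p = 0.229). With the replicate block 5 were called higher and 2 lower, beside 16.5% and 17.1%, and with spike-in scaling 6 higher and 0 lower (0 at an unadjusted p under 0.05), beside 28.7% and 0.93%. The authors' deposited value table gave 5 higher and 4 lower, beside 21.4% and 19.6%. With the block the scavenger receptor genes Cd36 and Msr1 and the sterol carrier gene Stard4 were among those that rose as well, at 0.71, 0.73 and 0.66, and the receptor genes Lrp1 and Scarb1 fell, at -0.69 each but at -0.03 each with spike-in scaling. The lysosomal lipase gene Lipa, the brightest by mean scaled level over the 4 arrays, had -0.18 ± 0.20 (adjusted p = 0.569).

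Of 16 other ABCA and ABCG transporter genes only 6 were compared. By limma's adjusted test 0 passed, beside 5.23% higher and 3.47% lower among named genes (1 lower at an unadjusted p under 0.05). With the replicate block 1 was called lower and 0 higher, beside 17.1% and 16.5%. That 1 was Abca4, the retinoid flippase gene (adjusted p = 0.0486 with the block, 0.0662 without). On the scanner arrays as first processed it was at least 2.48-fold lower. That floor did not hold with normexp, where the log2 change was -0.78, or in the authors' deposited value table, where it was -1.05. Abca4 was below background on both AEPS arrays and entered the comparison only through the control arrays, which largely fixes its direction. On the scanner arrays all 6 changes lay below 0, with a median of -0.31, and 5 of them turned above 0 with spike-in scaling. Abca7, the brightest, had -0.29 ± 0.15 (adjusted p = 0.270). In the authors' deposited value table it had -0.26 (limma adjusted p = 0.0282).

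The calls of Gpr183, Hsd3b7, Ncoa3, Ppargc1b, Rxrb and Lcat did not hold under every alternative. Gpr183, Hsd3b7, Ppargc1b and Rxrb each passed in 13 of 20 alternatives, Ncoa3 in 12 of 20 and Lcat in 11 of 19. Each of the 6 lost its call without the scanner array of control replicate 1 (Gpr183 -1.52, Hsd3b7 -0.96, Ncoa3 -1.39, Ppargc1b -1.57, Rxrb -1.0, Lcat 1.85) and without control replicate 3. All but Lcat also lost it without AEPS replicate 1 and without AEPS replicate 3. With spike-in scaling 4 lost their call: Gpr183 had -0.86, Ncoa3 -0.69, Hsd3b7 -0.24 and Rxrb -0.30 (adjusted p = 0.0719, 0.067, 0.442 and 0.332). With median scaling 5 lost it: Gpr183 had -1.29, Ncoa3 -1.12, Ppargc1b -1.23, Rxrb -0.73 and Hsd3b7 -0.67 (adjusted p = 0.0599, 0.134, 0.0813, 0.47 and 0.549). Each of these had the same SE there, 0.44, beside a median SE of 0.16 for named genes in the first fit. Ppargc1b at -1.35 and Lcat at 2.32 lost their call with quantile normalization (limma adjusted p = 0.0772 and 0.0509). With spike-in scaling the medians of the 5 lists lay between 0.34 and 0.56, beside 0.55 for all named genes.

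**Figure D4:**
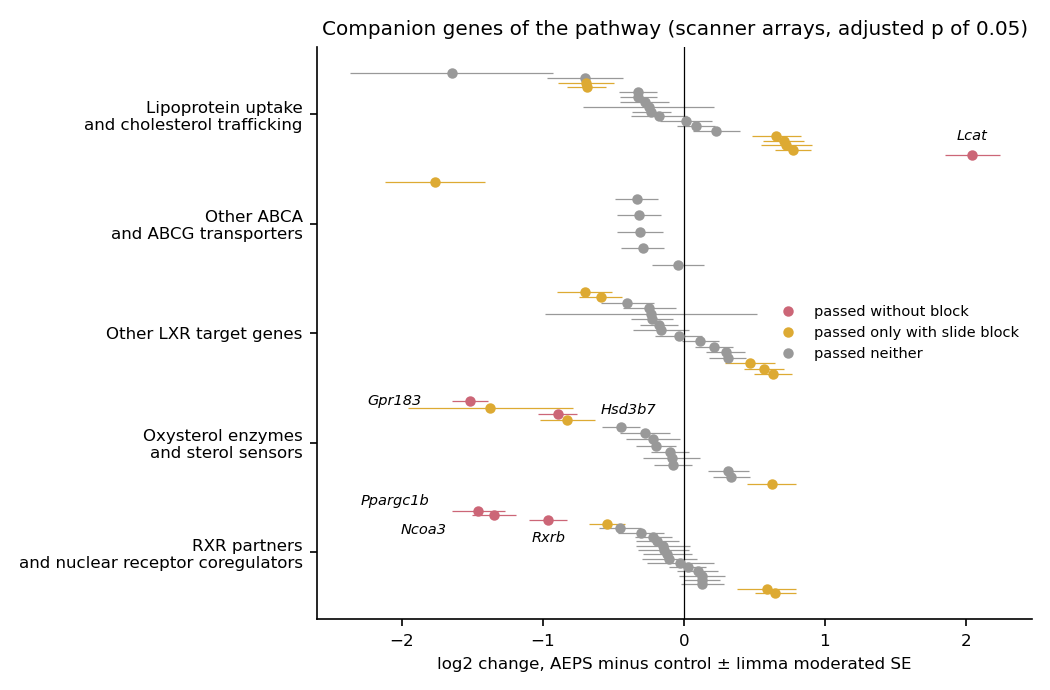
Log2 change between AEPS and control (x axis) with limma's moderated SE as bars for the compared genes of 5 lists (rows), 1 point per gene: red passed an adjusted p of 0.05, yellow passed only with the slide as a block, and grey passed neither. Gpr183 at -1.52, Ppargc1b at -1.46 and Ncoa3 at -1.34 are the lowest that passed without the block, and Lcat at 2.05, with controls below background, is the one on the right.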

How the data were processed

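Images were quantified in Agilent Feature Extraction 10.7.1.1, per the file headers. The deposited scanner files give intensity: a processed signal, background subtracted and detrended within the array, with mean pixel signal and local background. The authors' deposited value table is on a log2 scale; once sorted, its columns lay within 0.01 of each other, with a common median of 4.71, and its offset and method are not given in the sources used here.

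Flagged spots were set to missing, control spots left out and spots of a probe averaged. The processed signal was put on a log2 scale and the 75th percentile of its array subtracted. A probe was compared if well above background on both arrays of at least 1 group, and a gene was represented by its brightest such probe. Names came from an accession in the RefSeq table of GRCm38.p6 for 26582 probes and from the scanner annotation for 4818; 24281 had none. Groups were compared with limma 3.58.1 (R 4.3.3), adjusting p-values over 25925 features by the Benjamini-Hochberg method; the calculation was tested on simulated data.

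Members and lists were chosen with earlier results of these data known. Named genes are all members, up to 4 genes per list that passed with the largest change, the brightest that did not (1 such gene is not reported here), and the 3 nearest in pattern to each exporter; others in counts of 5 or fewer, and those named as below background, were named after their values were seen.

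Samples of the same replicate number were the most alike. After subtraction of group means they correlated across genes at 0.58, 0.39 and 0.42 in the table. Samples of different numbers correlated at -0.50 to 0.24, values that the subtraction itself pulls down. Arrays of 1 slide correlated at 0.62, but they are the table's replicates 1 and 2, so this is not separate evidence. The labels name no pairing, and the fit given first has no block.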

Additional observations from a re-analysis of the deposited data

How the results depend on the processing

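Abca1 stayed above 0 and Abcg1 below 0 under all 20 alternatives run; no member called in the scanner fit changed sign. Abca1 had 1.43 with normexp, 2.67 with quantile normalization, 2.78 with median scaling and 3.21 with spike-in scaling, and 2.46 to 2.70 when 1 sample was left out. Abcg1 had -2.08 with normexp, -2.02 with median scaling and -1.59 with spike-in scaling, and -2.30 to -2.16 when 1 sample was left out. The cause of these shifts was not tested.

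Counts of features by limma moved more. Higher and lower features numbered 4421 and 4246 in the authors' table, 1898 and 2688 with normexp, 1663 and 1240 with quantile normalization, 1036 and 442 with median scaling, and 5876 and 190 with spike-in scaling. With no filter on dim probes both were 0, with 3084 and 4268 at an unadjusted p under 0.05. With the replicate block they were 3361 and 4358 on the scanner arrays and 6086 and 6831 in the table; the block changed no member's call in either source. Leaving out 1 scanner array gave 7 to 444 higher and 0 to 345 lower, against 1081 and 761 with all; leaving out 1 column of the table gave 2845 to 3980 and 2589 to 3746, against 4421 and 4246. The 0 came without control replicate 1 of the scanner arrays, with 2797 lower at an unadjusted p under 0.05. Of 200 list counts under alternatives, 98 stayed within 1.5 times and 102 did not. The low number of arrays and, for Abca1 and Ch25h, control signal close to background limit the precision.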
